A study of Mus musculus with 6 samples.

Results

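Transcripts of 10 genes of the interleukin-1 (IL-1) family and its receptor complex were followed in synovial fibroblasts treated with compound 33 or with its vehicle. The genes were listed by name, as the ligands Il1a, Il1b, Il18 and Il33, the antagonist Il1rn, the receptors Il1r1, Il1rl1 and Il1rap, and the adaptors Myd88 and Irak1, and all 10 are rows of a count table of 21033 genes. The cells were primary fibroblasts from ankle joints of hTNFtg mice, a mouse model that carries a human TNF gene and develops chronic arthritis, kept in culture for 3 passages. The compound 33 group received 10 µM of the compound for 48 h, and the DMSO group received the vehicle for the same time, with 3 libraries in each group. All libraries of both groups carry the transgene, so no library stands for fibroblasts without excess TNF. The mouse age, the number of animals and whether replicates are separate cultures are not given in the labels, so a p-value here weighs a difference against the spread between libraries, and that spread may be technical.

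IL-1α and IL-1β bind IL-1 receptor 1 (Il1r1), which then recruits the accessory protein Il1rap and passes the signal through Myd88 and the IRAK kinases to NF-κB. IL-33 uses the same accessory protein with its own receptor ST2, the product of Il1rl1, and IL-18 uses a further receptor pair. The family is held in check by the receptor antagonist Il1rn, by decoy receptors and by binding proteins. In joints, IL-1 drives synovial fibroblasts to release chemokines, IL-6, prostaglandins and matrix-degrading enzymes, which TNF induces as well.

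Each transcript gave reads from its 3′ end alone. A level, in counts per 1000000 reads (CPM), therefore follows the number of transcripts without a correction for length. The compound 33 libraries held 1594052 to 2384850 reads and the DMSO libraries 1913730 to 2897207. A low-count filter, met where a gene reached about 4.70 CPM in at least 3 libraries, kept 10124 genes for testing. All 11 fibroblast markers looked up were tested, and their summed level was 12610 to 14516 CPM with compound 33 and 15204 to 16175 CPM with DMSO, ranges that did not overlap. Macrophage markers summed to 54.7 to 110.2 CPM with compound 33 and 72.1 to 149 CPM with DMSO, with Lyz2 the highest on average, and the pan-leukocyte gene Ptprc had 1 read in the compound 33 libraries and 5 in the DMSO libraries. Of 6 mast cell markers 5 had no read in any library, and the sixth, Cma1, had 1. Neutrophil markers summed to 3.67 to 10.3 CPM with compound 33 and 4.06 to 5.83 CPM with DMSO. The highest of them was S100a8, with 43 reads with compound 33 and 29 with DMSO, while S100a9 was at 0 reads. All 6 lymphocyte markers were at 0 reads, and endothelial markers summed to 4.63 to 9.54 CPM with compound 33 and 2.09 to 3.71 CPM with DMSO, which did not overlap either. The largest difference among them was that of Tek, with 28 reads with compound 33 and 8 with DMSO. In the same order Kdr had 8 and 5 reads, Cdh5 5 and 5, Emcn 0 and 2, and Pecam1 and Tie1 had 0. In bulk samples, fewer cells of a type and less RNA per cell cannot be told apart.

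In both groups ST2 transcripts were abundant, those of the antagonist varied widely between libraries, and those of the IL-1 agonists were nearly missing. Of the 10 genes, 7 passed the low-count filter, each of them over the cutoff in all 6 libraries. Over all 6 libraries Il1rl1 had the highest mean level, 1235 CPM, which ranked 83 among 10124 tested genes. Il1rn followed at 128 CPM, Irak1 at 95.1 CPM and Myd88 at 85.4 CPM, and the libraries' ranges of these 3 genes overlapped one another. Il1rap (17.0 CPM) and Il1r1 (14.1 CPM) lay well below and overlapped each other. Il18 was the lowest, at 7.41 CPM, and overlapped Il1r1 with compound 33 but not with DMSO. The remaining genes, Il1a, Il1b and Il33, stayed under the filter.

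**Figure D1:**
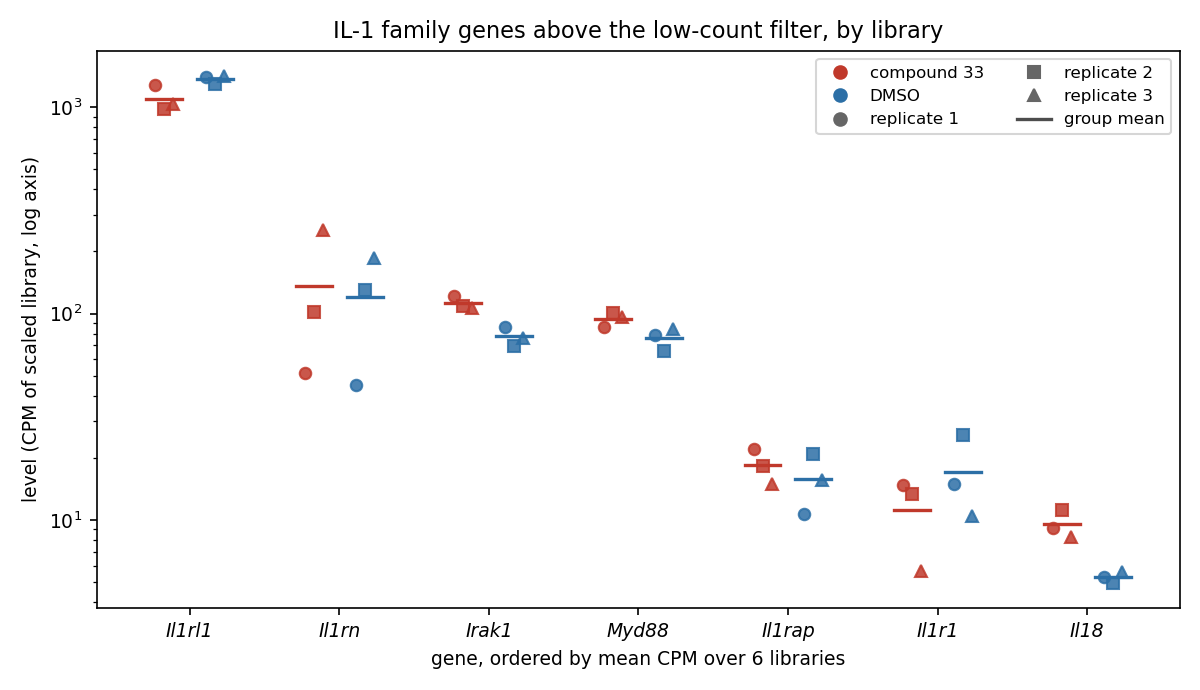
Level of each tested IL-1 family gene in every library, in CPM of the scaled library on a log axis, with compound 33 left of DMSO, marker shapes for the replicate numbers and bars for the group means. Il18, Irak1 and Myd88 have all compound 33 libraries above all DMSO libraries, Il1rl1 has them below, and Il1rn spreads from 45.1 to 253 CPM.

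No IL-1 family gene passed the test of compound 33 against DMSO. By edgeR's quasi-likelihood test 0 of the 7 tested genes had an adjusted p under 0.05, where 3 of all 10124 genes did, 0.0296% of those tested. DESeq2 and limma-voom also passed 0 of them. At an unadjusted p under 0.05, edgeR and limma-voom held Irak1 and Il18, and DESeq2 held Irak1. In edgeR these were 2 of 7 genes, where 6.87% of all tested genes lay under 0.05, and both were higher with compound 33, the direction of 3.64% of all tested genes. Groups did not overlap for 4 of the 7, where 13.4% of all tested genes had such groups: 3 with compound 33 above DMSO (6.64% of all) and 1 below (6.73% of all). The median log2 fold change over the 7 was 0.22, against -0.01 over all tested genes, and single genes ran from -0.60 to 0.86. Of 10063 genes with an adjusted p in the authors' deposited table, 18 (0.179%) are under 0.05, and 0 of them belong to the family. The lowest of the family in the authors' deposited table is Irak1, at 0.54 on the log2 scale (SE 0.24, adjusted p = 0.762).

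**Figure D2:**
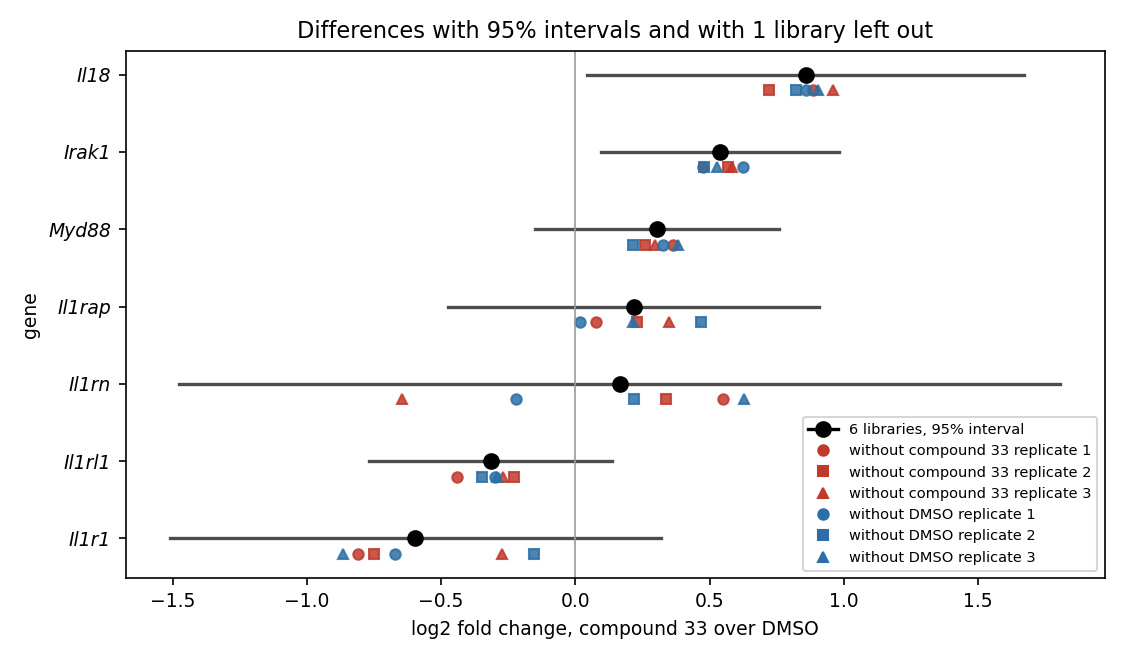
Log2 fold change of each tested gene, compound 33 over DMSO, as black points with 95% intervals, and below each the estimate with 1 library left out in turn. The intervals of Il18 (0.04 to 1.67) and Irak1 (0.09 to 0.98) lie above 0 before adjustment, while the estimates of Il1rn fall on both sides of 0.

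The agonist ligands were at the limit of detection. Il1a, which encodes IL-1α, had 1, 0 and 0 reads in compound 33 replicates 1 to 3, against 1, 2 and 0 reads in DMSO replicates 1 to 3. Il1b, which encodes IL-1β, had 0 reads in all libraries, which allows a level of up to 1.83 CPM in a single compound 33 library and 1.59 CPM in a single DMSO library (3 counts, covering counting error only). Both genes are on the minus strand of chromosome 2 in mm10, Il1a at 129299610 to 129309972 and Il1b at 129364570 to 129371139. A difference between the groups was not detectable at this depth for either gene.

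Il33 encodes IL-33, an alarmin that fibroblasts and other barrier cells keep in the nucleus and release on damage. It had 0 reads in each compound 33 library, against 5, 0 and 3 reads in DMSO replicates 1 to 3. The pooled DMSO level of 1.15 CPM was 2.29 times the 0.501 CPM that 3 reads over the compound 33 group would give. This limit covers the counting error of the 0 reads only, and the 8 DMSO reads were taken as observed. Without DMSO replicate 1, which held 5 of the 8 DMSO reads, the DMSO group had 3 reads. Its pooled level was then 0.589 CPM, 1.18 times the same limit, and no difference was read from so few reads. One of the DMSO libraries was also at 0, so the groups overlap. Fitted without the low-count filter, edgeR's quasi-likelihood test gave an unadjusted p of 0.0202 and an adjusted p of 0.619, and the authors' deposited table has an unadjusted p of 0.0822. The gene spans 29925114 to 29960718 of chromosome 19 (plus strand), where no other annotated gene shares its exons.

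Il18 encodes IL-18, which is made as a precursor and cut by caspase-1. Its level was 9.17, 11.2 and 8.24 CPM in compound 33 replicates 1 to 3, against 5.30, 4.96 and 5.57 CPM in DMSO replicates 1 to 3. Every compound 33 library lay above every DMSO library, although the counts behind these levels were small, 15, 27 and 16 reads against 10, 11 and 16. The means were 9.53 ± 1.51 CPM with compound 33 and 5.28 ± 0.305 CPM with DMSO (SD, n = 3 each). The log2 fold change was 0.86 (SE 0.38, 95% interval 0.04 to 1.67), with an unadjusted p of 0.0405 and an adjusted p of 0.720 by edgeR's quasi-likelihood test. The gene spans 50554827 to 50581840 of chromosome 9 (plus strand).

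Il1rn, the antagonist that occupies Il1r1 without signalling, was the one ligand gene expressed well above the filter. Its level was 51.4, 102 and 253 CPM in compound 33 replicates 1 to 3, against 45.1, 129.9 and 186 CPM in DMSO replicates 1 to 3. Each group held a low, a middle and a high library, the ranges overlapped, and the low, middle and high library carried the same replicate number in both groups. Within a number, the log2 difference of compound 33 minus DMSO was 0.19, -0.35 and 0.44 for replicates 1 to 3. The labels do not say that a number marks a shared animal or culture. Summed over libraries, Il1rn had 822 reads with compound 33 and 908 with DMSO, where Il1a and Il1b together had 1 and 3.

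The spread of Il1rn within a group was far wider than that of most genes. The SD of its log2 CPM over the libraries was 1.14 with compound 33 and 1.05 with DMSO, where the median over all tested genes was 0.27 with compound 33 and 0.31 with DMSO. Among 1344 other genes with a mean log2 CPM within 0.5 of it, 0 had an SD at least as large in both groups. The means were 135.5 ± 105 CPM with compound 33 and 120.4 ± 71.1 CPM with DMSO. The log2 fold change of 0.17 therefore has a 95% interval of -1.48 to 1.81 (adjusted p = 0.978, edgeR's quasi-likelihood test), and it was -0.64 without compound 33 replicate 3 and -0.22 without DMSO replicate 1. Macrophages are a rich source of Il1rn, and macrophage markers summed to 82.5, 54.7 and 110.2 CPM in compound 33 replicates 1 to 3, against 72.1, 84.8 and 149 CPM in DMSO replicates 1 to 3. The library with the highest marker sum was also the highest for Il1rn in both groups. With compound 33 the lowest marker sum was that of replicate 2, while the lowest Il1rn was that of replicate 1. Lyz2 made up 72.1 CPM of the sum in compound 33 replicate 3 and 104.4 CPM in DMSO replicate 3. The part of these markers in the spread was not tested. Il1rn spans 24336853 to 24351494 of chromosome 2 (plus strand), apart from Il1a and Il1b.

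Il1rl1 encodes ST2, the receptor for IL-33, both as a membrane receptor and as a shorter soluble form that binds IL-33 as a decoy. Its level was 1281, 976 and 1043 CPM in compound 33 replicates 1 to 3, against 1396, 1294 and 1417 CPM in DMSO replicates 1 to 3. All compound 33 libraries were below all DMSO libraries, but the highest of the first lay close to the lowest of the second. The means were 1100.2 ± 160.5 CPM with compound 33 and 1369 ± 66.0 CPM with DMSO. The log2 fold change was -0.32 (SE 0.21, 95% interval -0.77 to 0.14, adjusted p = 0.842, edgeR's quasi-likelihood test), and it stayed negative with each library left out, between -0.44 and -0.23.

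Il1rl1 provided most of the family's reads, 80.7, 73.4 and 68.3% of the reads of the 10 genes in compound 33 replicates 1 to 3, against 85.1, 80.3 and 78.9% in DMSO replicates 1 to 3. These shares overlapped between the groups. The gene spans 40429570 to 40465415 of chromosome 1 (plus strand), and its 5 annotated coding transcripts have 3′ ends from 40441407 to 40465415. The table gives 1 count per gene, so soluble and membrane forms cannot be told apart. Outside fibroblasts the gene is known from mast cells, among other cell types. The listed mast cell markers were at 0 reads apart from the single read of Cma1. Mcpt8, a mast cell protease gene by name and outside the lists, had means of 13.01 CPM with compound 33 and 43.1 CPM with DMSO. Its groups overlapped, and its log2 fold change was -1.74 (unadjusted p = 0.0025, adjusted p = 0.401, edgeR's quasi-likelihood test), negative like that of Il1rl1. Which cells the Il1rl1 reads came from was not tested.

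Il1r1, the signalling receptor for IL-1α and IL-1β, ranked 7643 among the 10124 tested genes by mean level. Its level was 14.7, 13.3 and 5.66 CPM in compound 33 replicates 1 to 3, against 14.8, 25.7 and 10.4 CPM in DMSO replicates 1 to 3. The groups overlapped, with 1 low compound 33 library and 1 high DMSO library. The means were 11.2 ± 4.85 CPM with compound 33 and 17.0 ± 7.86 CPM with DMSO. The log2 fold change of -0.60 (SE 0.42, 95% interval -1.51 to 0.32, adjusted p = 0.865, edgeR's quasi-likelihood test) became -0.15 when DMSO replicate 2 was left out, and -0.87 when DMSO replicate 3 was. In every library Il1rl1 had at least 50.3 times the reads of Il1r1, with ratios of 87.3, 73.6 and 184 in compound 33 replicates 1 to 3 and of 94.0, 50.3 and 135.7 in DMSO replicates 1 to 3. Il1r1 spans 40225080 to 40317257 of chromosome 1 (plus strand), upstream of Il1rl1 in the same direction.

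Il1rap encodes the accessory chain that both Il1r1 and ST2 need for signalling. Its level was 22.0, 18.2 and 14.9 CPM in compound 33 replicates 1 to 3, against 10.6, 20.8 and 15.7 CPM in DMSO replicates 1 to 3. The groups overlapped, and the value farthest from the rest was that of DMSO replicate 1. The means were 18.4 ± 3.54 CPM with compound 33 and 15.7 ± 5.07 CPM with DMSO, a log2 fold change of 0.22 (SE 0.32, 95% interval -0.47 to 0.91, adjusted p = 0.939, edgeR's quasi-likelihood test). It was 0.02 without DMSO replicate 1. Il1rap spans 26581704 to 26730117 of chromosome 16 (plus strand), and its exons overlap those of Gm20319 on the opposite strand.

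Irak1 encodes a kinase that joins the Myd88 complex after receptor binding, and had the lowest p of the 7 tested genes of the family. Its level was 122, 109 and 106.6 CPM in compound 33 replicates 1 to 3, against 86.4, 69.9 and 76.2 CPM in DMSO replicates 1 to 3. Every compound 33 library lay above every DMSO library, and the spread within each group was small. The means were 112.6 ± 8.45 CPM with compound 33 and 77.5 ± 8.33 CPM with DMSO. The log2 fold change was 0.54 (SE 0.21, 95% interval 0.09 to 0.98), with an unadjusted p of 0.0213 that ranked 317 among the tested genes and an adjusted p of 0.674 by edgeR's quasi-likelihood test. With each library left out in turn it lay between 0.48 and 0.62. Irak1 spans 74013914 to 74023918 of chromosome X (minus strand), and its exons overlap the miRNA genes Mir718 and Mir5132 on the same strand.

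Myd88 encodes the adaptor shared by IL-1, IL-18, IL-33 and most Toll-like receptors. Its level was 86.2, 100.7 and 96.3 CPM in compound 33 replicates 1 to 3, against 79.0, 65.9 and 84.6 CPM in DMSO replicates 1 to 3. The groups did not overlap, although the lowest compound 33 library and the highest DMSO library were close. The means were 94.4 ± 7.45 CPM with compound 33 and 76.5 ± 9.62 CPM with DMSO, a log2 fold change of 0.30 (SE 0.21, 95% interval -0.15 to 0.76, adjusted p = 0.856, edgeR's quasi-likelihood test). Myd88 spans 119335934 to 119341411 of chromosome 9 (minus strand). Its exons overlap those of Acaa1a on the opposite strand, and without a stated strand setting reads of the overlap cannot be told apart.

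The promoters of the family were searched for the motifs of NF-κB, of the STAT and interferon-responsive factors and of the aryl hydrocarbon receptor. RefSeq promoter windows on GRCm38.p6, from 250 bases before to 50 bases after each start, were at hand for all 10 genes, 16 windows in all. The interferon motif TTTCNNTTTC was present in windows of 2 genes, Myd88 and Il1rap (3.44% of all 32851 windows hold it), and the STAT motif TTCNNNGAA in Myd88 (8.3% of all). The aryl hydrocarbon receptor motif TNGCGTG was present in a window of Il1r1 (5.07% of all), at chr1:40225100-40225129. The NF-κB consensus was present in a different window of Il1r1 (4.51% of all), at chr1:40266344-40266373. Both strands were searched. The matches of Myd88 and Il1rap, the genes that share the interferon motif, are shown with the motif in capitals, on the strand of the gene. The capitals of the interferon matches spell the motif read from the opposite strand, and the 2 Myd88 matches share bases.
Myd88, STAT motif, chr9:119340045-119340074, minus strand: agggcggagcTTCTCGGAAagcgaaagaag
Myd88, interferon motif, chr9:119340039-119340068, minus strand: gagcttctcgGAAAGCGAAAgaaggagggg
Il1rap, interferon motif, chr16:26581715-26581744, plus strand: tccggaggggGAAAAAGAAAgtgcggcgga
The STAT match of Myd88 begins 46 bases before the RefSeq start. A match is a description of the letters, and no binding was measured.

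The other ligands and receptors of the family were largely silent. The table holds the IL-36 and IL-38 genes under their older symbols Il1f5, Il1f6, Il1f8, Il1f9 and Il1f10, all at 0 reads. Il18bp, a secreted protein that traps IL-18, was the only gene of the list of ligands and binding proteins to be tested. Its level was 11.0, 11.6 and 10.8 CPM in compound 33 replicates 1 to 3, against 4.24, 7.22 and 5.22 CPM in DMSO replicates 1 to 3, with every compound 33 library above every DMSO library. Its log2 fold change was 1.00 (unadjusted p = 0.0192, adjusted p = 0.671, edgeR's quasi-likelihood test). Of 7 other receptors 2 were tested and 0 passed, with 0 under an unadjusted 0.05. Il1rl2, the IL-36 receptor, was the most abundant of them at 38.1 ± 5.09 CPM with compound 33 and 38.9 ± 3.77 CPM with DMSO, higher than Il1r1 in all 6 libraries. Il18rap, a chain of the IL-18 receptor, stood at 5.21 ± 0.854 CPM with compound 33 and 8.30 ± 5.31 CPM with DMSO, while its partner Il18r1 had 3 reads with compound 33 and 2 with DMSO. The decoy receptor Il1r2, under the filter, had 5 reads with compound 33 and 20 with DMSO, 13 of them in DMSO replicate 1.

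Genes that carry the signal below Myd88 showed no common direction. Of 18 tested, 9 were above 0 and 9 below on the log2 fold change scale (median 0.01). EdgeR's quasi-likelihood test passed 0, and 2 higher and 0 lower ones were under 0.05 before adjustment, where 3.64% of all tested genes were higher and 3.23% lower. These were Ikbkb, the IκB kinase β, at 47.5 ± 9.06 CPM with compound 33 and 33.0 ± 4.11 CPM with DMSO, and Peli2, a ubiquitin ligase that acts on IRAK proteins, at 21.2 ± 2.30 CPM with compound 33 and 13.6 ± 3.42 CPM with DMSO. The most abundant were Tollip, an inhibitory adaptor (log2 fold change -0.19), Tab2, which links TRAF6 to the kinase TAK1 (0.25), and Map3k7, which encodes TAK1 (-0.02).

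Genes for maturation and release of IL-1 and IL-18 also went both ways, with 6 positive and 5 negative of 11 tested. EdgeR's quasi-likelihood test passed 0, and before adjustment 2 higher and 0 lower ones were under 0.05, against the same shares of all tested genes (3.64% and 3.23%). Pycard, which encodes the inflammasome adaptor ASC, had 15.9, 17.0 and 12.4 CPM in compound 33 replicates 1 to 3, against 6.89, 4.06 and 4.18 CPM in DMSO replicates 1 to 3. Every compound 33 library lay above every DMSO library, and the log2 fold change was 1.61 (unadjusted p = 0.000875, adjusted p = 0.341, edgeR's quasi-likelihood test). Gsdmd, the pore-forming gasdermin D, stood at 41.0 ± 8.36 CPM with compound 33 and 25.4 ± 10.6 CPM with DMSO. The sensor Nlrp3 had 4 reads with compound 33 and 6 with DMSO, and the sensors Nlrp1b and Nlrc4 had 0 reads. Aim2, a further sensor under the filter, had 3, 13 and 9 reads in compound 33 replicates 1 to 3, against 1, 0 and 4 in DMSO replicates 1 to 3. Fitted without the low-count filter, edgeR's quasi-likelihood test gave Aim2 an unadjusted p of 0.00462 and an adjusted p of 0.420. Caspase-1 (Casp1) stood at 11.0, 17.8 and 10.3 CPM in compound 33 replicates 1 to 3, against 14.3, 12.6 and 15.7 CPM in DMSO replicates 1 to 3. The most abundant were the calpain Capn2 (log2 fold change -0.47), S100a13, a partner in IL-1α release (0.36), and Ninj1, which ruptures the membrane of dying cells (0.00).

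Genes that fibroblasts switch on under IL-1, and also under TNF, leaned downward, without a gene that passed in the filtered edgeR fit. The median log2 fold change was -0.31, and 14 of 21 tested genes were below 0, where 5176 of all 10124 tested genes were. EdgeR's quasi-likelihood test passed 0 of them. Under an unadjusted p of 0.05, 7 were lower, the direction of 3.23% of all tested genes, and 1 was higher, the direction of 3.64%. The list was chosen with earlier results of these data known, so these counts only describe it. Mmp3, the matrix protease stromelysin, had 1448, 994 and 976 CPM in compound 33 replicates 1 to 3, against 1889, 1782 and 1698 CPM in DMSO replicates 1 to 3, which did not overlap. The chemokine Ccl20 had 136.9, 90.8 and 180.2 CPM in compound 33 replicates 1 to 3, against 231, 189 and 221 CPM in DMSO replicates 1 to 3, which did not overlap either. The other lower ones included Il6 (log2 fold change -2.52), Ptgs2 (-0.86), Saa3 (-0.66) and Ccl2 (-0.56), and the higher one was the adhesion molecule Vcam1 (0.80). Il6 is among the 18 genes under 0.05 in the authors' deposited table, and without the low-count filter it passed edgeR's quasi-likelihood test too (adjusted p = 0.00143). Fibroblast markers lay in the same direction, 9 of 11 below 0 with a median of -0.23. Under an unadjusted 0.05, 3 of them were lower (Lum, Thy1 and Dcn) and 0 higher, against 3.23% and 3.64% of all tested genes. The part of these markers in the lower response genes was not tested. Of the NF-κB feedback genes, Nfkbia (0.13), Nfkbiz (0.17) and Zc3h12a (0.50) had values above 0 and Tnfaip3 (-0.31) below.

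**Figure D3:**
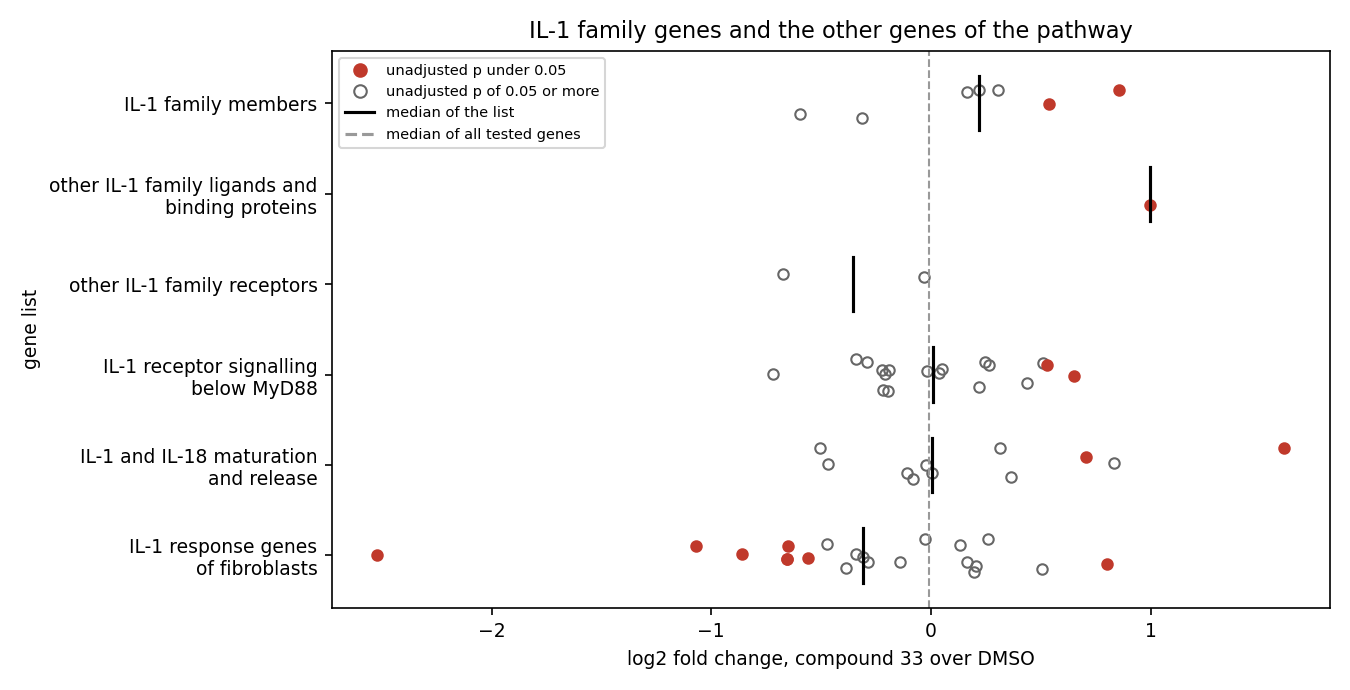
Log2 fold change, compound 33 over DMSO, of tested genes in 6 lists, with filled points for an unadjusted p under 0.05, a black bar for each list's median and a dashed line for the median of all tested genes (-0.01). The medians of the signalling and maturation lists lie near 0 (0.01 and 0.00), that of the response list at -0.31 and that of the IL-1 family at 0.22.

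Genes whose pattern over the 6 libraries was closest to that of Il1rl1, by the Euclidean distance between log2 CPM values centred on their mean, were Nipsnap2 (distance 0.09), Mcc (0.12) and Dennd4a (0.14), where the median distance of all tested genes was 0.91. Among the closest to Irak1 were Zfp715 (0.13) and Stoml1 (0.20), against a median of 1.03. For Il1rn, added after its values were seen, they were Cuedc1 (0.39), Smarcd1 (0.71) and AA467197 (0.74), against a median of 2.32. AA467197 had 25.7, 101.6 and 153 CPM in compound 33 replicates 1 to 3, against 26.0, 91.1 and 118 CPM in DMSO replicates 1 to 3. It was picked for closeness to Il1rn over these libraries, so a shared order by replicate number follows from the choice and adds no second observation. Among 10124 genes some fall close to any pattern of 6 values, and these distances are a description.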

How the data were processed

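Per the submitters' processing notes, the authors used FastQC 0.11.9, HISAT2 2.2.1, featureCounts 2.0.3 and DESeq2 on mm10, and per the labels' protocols libraries were QuantSeq 3′ mRNA libraries read on an Ion Proton. The sources used here do not give the annotation, the strand setting or how multi-mapping reads were treated. Raw counts per gene symbol were deposited by the authors. Their deposited comparison holds a mean normalized signal, log2 fold changes with errors, a Wald score and p-values. Positions are from GENCODE M21 on the same build.

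The analysis used edgeR 4.0.16 in R 4.3.3 (filterByExpr with a minimum count of 10, TMM scaling, robust quasi-likelihood F test on group alone, two-sided), with p-values adjusted by Benjamini-Hochberg over all 10124 tested genes at a threshold of 0.05. Levels are CPM of the scaled library, and each SE follows from the log2 fold change and its F value. Alternatives were RLE and upper-quartile scaling, no filter, a minimum count of 30, no robust estimation, DESeq2 1.42.0, limma-voom (limma 3.58.1), the replicate number as a block and each library left out. The fit was tested on simulated data. The IL-1 family genes and the pathway and marker lists were chosen with earlier results of these data known. Of each pathway list, genes under an unadjusted 0.05 (up to 6) and the 3 most abundant were named. Il18r1, Nlrp3, Nlrp1b, Nlrc4, Aim2, Casp1, Nfkbia, Nfkbiz, Tnfaip3, Zc3h12a and the Il1f genes were added after their values were seen. So was Mcpt8, from outside the lists.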

Additional observations from a re-analysis of the deposited data

How the results depend on the processing

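The number of IL-1 family genes that passed was 0 in the main analysis and under all 14 alternatives, and the lowest adjusted p of any of them was 0.401, for Irak1 without DMSO replicate 1. The number of all genes that passed was 3, and became 21 without a low-count filter, 18 in DESeq2 and 7 with the replicate block; it ran from 1 to 7 with each library left out. The median log2 fold change of the 7 tested genes was 0.22, and lay between 0.19 and 0.23 under the other settings. Leaving out 1 library gave 0.02 to 0.38, the lowest without DMSO replicate 1 and the highest without DMSO replicate 3. The direction held for 6 of the 7 genes throughout. For Il1rn it ran from -0.64 to 0.63 with each library left out. At an unadjusted p under 0.05, edgeR held 0 of the family without compound 33 replicate 1, without DMSO replicate 2 or without DMSO replicate 3, and at most 2 in the other fits. Il18 had no value at a minimum count of 30. Same-numbered libraries were not shown to be paired: the correlations of their deviations from the group means over 10124 genes were -0.03, 0.21 and 0.08, and not every library correlated best with its own number. With the replicate block the log2 fold change of Il1rn was 0.09 and that of Irak1 0.54 (adjusted p = 0.707, edgeR). At 1594052 to 2897207 reads a library, Il1a, Il1b and Il33 had at most 5 reads in any library, and Il18 rests on 10 to 27 reads a library.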
